A study of Mus musculus with 16 samples.

Results

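Glutamate and GABA receptor subunits are followed here in the mouse somatosensory cortex, in RNA bound to astrocyte ribosomes and in RNA of the whole tissue. The subunits are 33 genes given by name, chosen as listed members of the AMPA, NMDA, kainate, delta, metabotropic glutamate, GABA-A and GABA-B receptor families, and kept if their mean over all 16 libraries was above 1 CPM (reads of a gene per 1000000 reads counted on genes). All 33 were found and all 33 passed, among 24060 genes measured and 13341 with a mean above 1 CPM. Other subunit genes of these families are not used here, so each share of a family below is a share among the listed genes.

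All 16 libraries came from Aldh1l1CreERT2-RiboTag mice on a C57BL/6J background aged 3 months, about 4 weeks after tamoxifen by the sample labels (the methods give a shorter interval). In these mice a tamoxifen-dependent Cre under the astrocyte promoter Aldh1l1 puts an HA tag on the ribosomal protein Rpl22, so that ribosomes of recombined astrocytes can be pulled down. IP is the RNA of those ribosomes and INPUT is the cleared lysate before the pull-down. Stressed mice swam for 20 min and rested for 90 min in the home cage, and naïve mice stayed in the home cage. Each of the 4 groups, IP and INPUT from naïve and from stressed mice, had 4 libraries. By the methods, each animal's lysate gave both an IP and its INPUT, and mice of both sexes were used. The labels give neither the sex of a library nor which IP and INPUT came from 1 mouse. Libraries were therefore treated as independent and p-values measure the spread between them. Where IP and INPUT enter 1 test, the p-values leave this pairing out.

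Glutamate is the main excitatory and GABA the main inhibitory transmitter of the cortex. AMPA, NMDA, kainate and GABA-A receptors are ion channels built from several subunits, while metabotropic glutamate receptors and GABA-B receptors act through G proteins. Neurons carry most of them at synapses. Astrocytes wrap these synapses, clear both transmitters and carry receptors for both, and which subunits they make sets which signals they can read.

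Library totals were 16392876 to 25814364 reads on genes, and a count of 3 reads came to at most 0.183 CPM. The fractions matched their labels: all 8 astrocyte markers were higher in naïve IP than in naïve INPUT, by 2.87 to 4.50 on the log2 scale, and all 8 neuronal markers were lower, by −4.74 to −3.07. Neuronal RNA was not at 0 in IP, where the 8 neuronal markers summed to 659 to 833 CPM in naïve and 524 to 773 CPM in stressed mice, against 11264 to 13418 CPM in INPUT. Levels and shares in IP therefore describe the fraction and not astrocytes alone. In bulk RNA, fewer cells of a type and less RNA per cell cannot be told apart.

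The first question was which subunits the astrocyte fraction held. A small set stood above the whole cortex: the NMDA subunit Grin2c (9.40-fold), the GABA-A subunits Gabrg1 (8.73-fold), Gabrb1 (3.89-fold) and Gabra2 (1.65-fold), the metabotropic receptor Grm3 (5.89-fold), the GABA-B subunit Gabbr1 (1.46-fold) and the NMDA subunit Grin3a (1.38-fold). The other 26 subunits were lower, from 1.53-fold for Grid1 to 18.8-fold for Gabrd. Under median-ratio scaling of the libraries the log2 ratio of Grid1 turned to 0.06 and no longer passed the test described below. Folds here and below come from limma on log2(CPM + 0.1), which understates the change of low genes.

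All 33 members passed the test in naïve mice (limma, Benjamini-Hochberg adjusted p under 0.05 over the 13339 genes tested), 7 higher and 26 lower, and no member's IP and INPUT values overlapped. Most genes passed this test: 87.7% of all genes tested were called, 23.7% higher and 64.0% lower, and 83.7% did not overlap between the groups. The share of members called was therefore little above that of all genes, and the members are described by the size of their ratios. The median log2 ratio was −2.58 over the members and −0.64 over all genes tested. The balance of higher and lower genes depends on how libraries are scaled. Under median-ratio scaling 42.8% of genes were higher and 41.3% lower, the median over all genes was 0.03 and that over the members −1.91, and under quantile normalization the values were 42.3%, 41.1%, 0.02 and −1.93. Every ratio given here is on the CPM scale and is to be read against the median of −0.64. In stressed mice the same 7 were higher and the same 26 lower, with a median of −2.59 and again no overlap, where 86.1% of the 13333 genes tested were called, 23.6% higher and 62.5% lower, and 81.4% did not overlap.

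Set against the marker genes in naïve mice, 2 members lay within the range of the astrocyte markers, Grin2c and Gabrg1. Another 11 lay within the range of the neuronal markers (Grin1, Grin2a, Grik3, Grm2, Grm4, Grm5, Grm8, Gabra3, Gabra5, Gabrb2 and Gabrd). The remaining 20 lay between both ranges. The same genes fell in the same ranges in stressed mice. The ranges moved with the scaling, and under quantile normalization 3 members lay within the neuronal range and 4 within the astrocyte range in naïve mice. Markers of other cell types overlapped the neuronal range in naïve mice. They spanned −3.92 to −3.06 for oligodendrocytes, −3.54 to −1.53 for oligodendrocyte precursors, −4.22 to −0.98 for microglia and −3.89 to −1.91 for endothelial cells. A place in the neuronal range therefore marks depletion in IP and does not name a cell type.

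**Figure D1:**
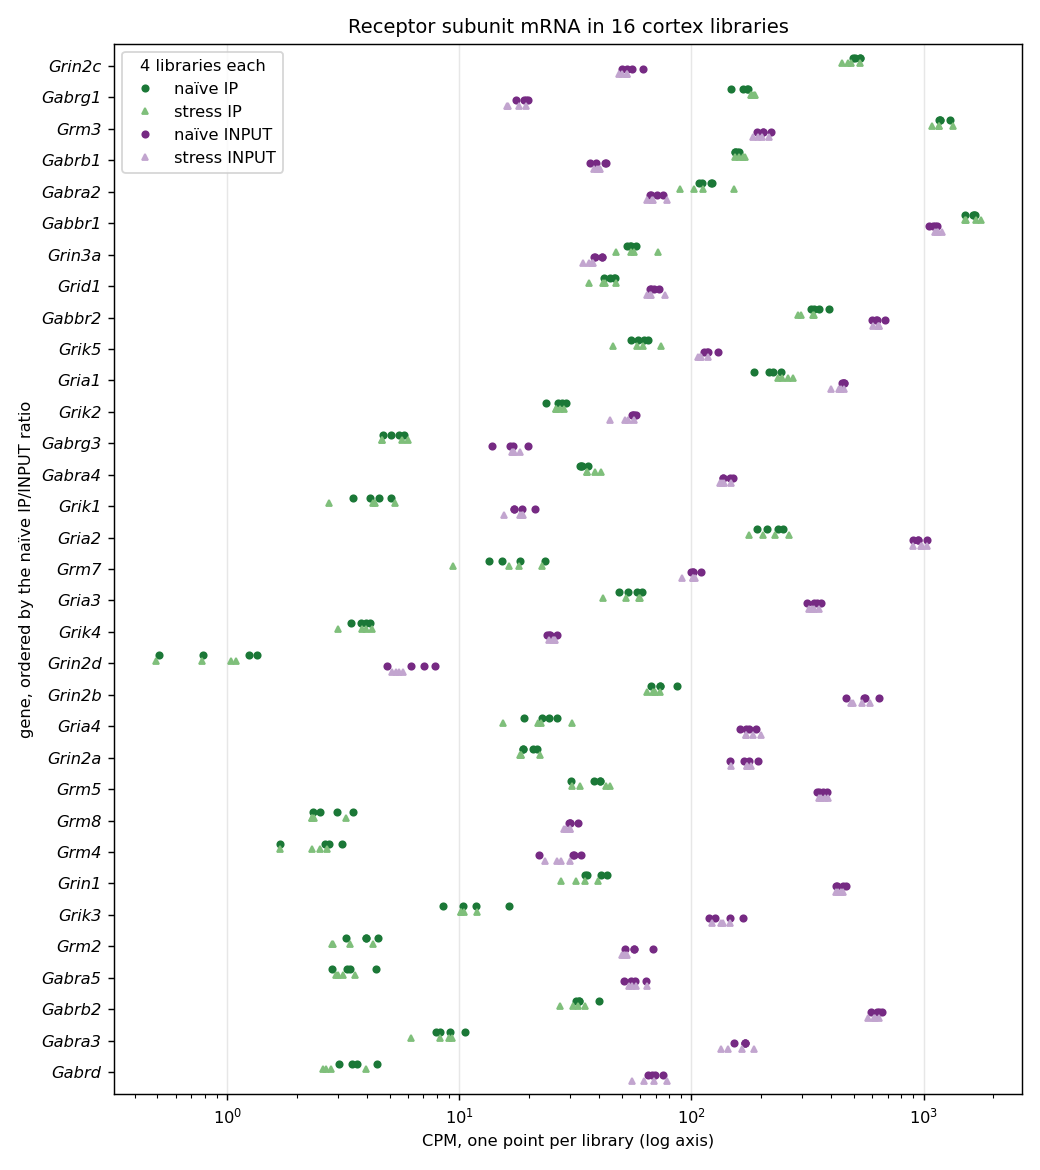
CPM of each of the 33 receptor subunits (rows, ordered by the naïve IP/INPUT ratio) in 16 libraries on a log axis. Points are single libraries, dark green and light green for naïve and stress IP, dark and light purple for naïve and stress INPUT, 4 each. IP points lie to the right of INPUT points in the top 7 rows and to the left in the 26 rows under them.

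**Figure D2:**
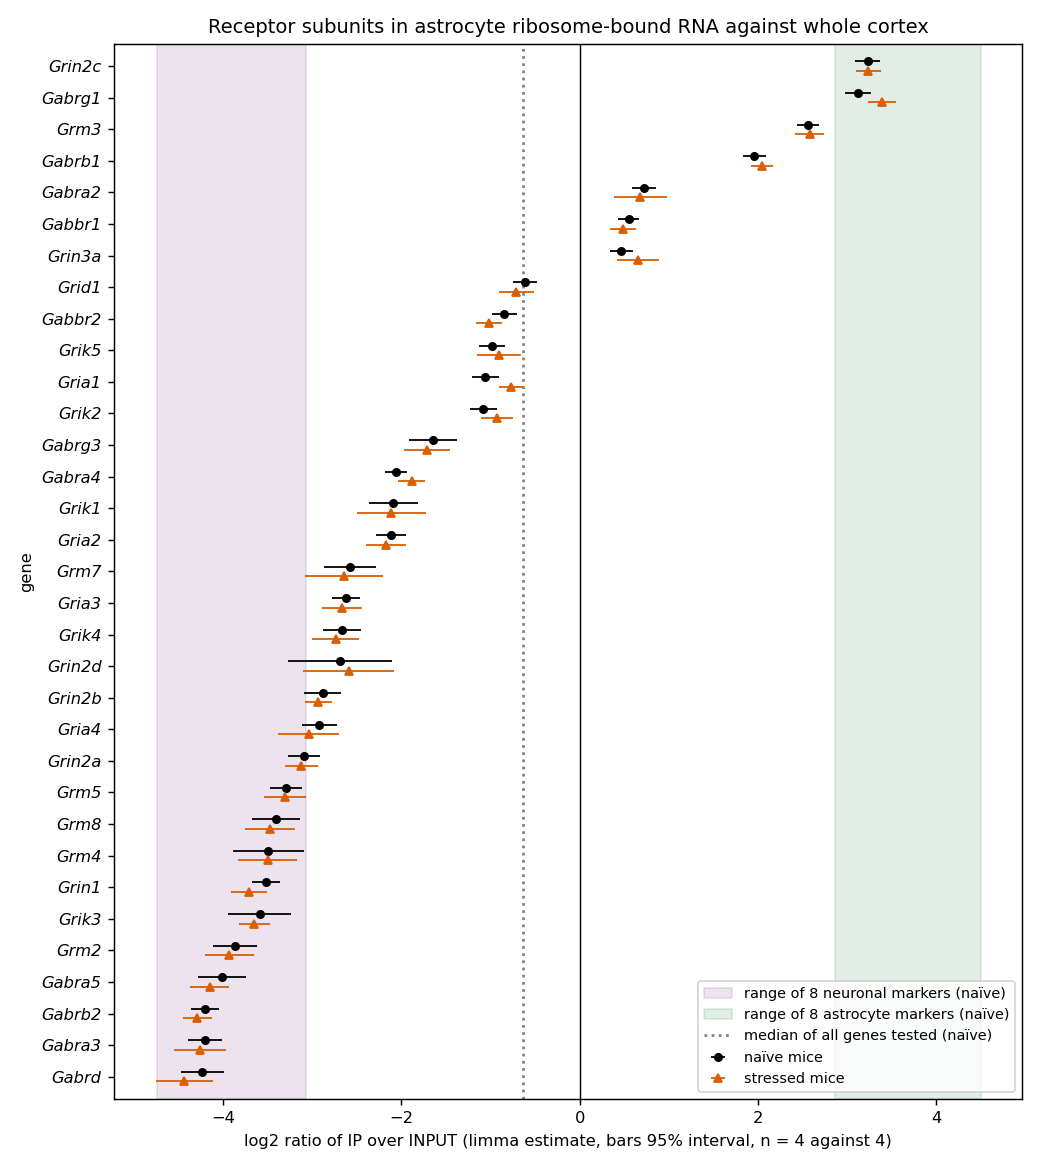
Log2 ratio of IP over INPUT for each subunit in naïve mice (black circles) and stressed mice (orange triangles), with 95% intervals, 4 against 4 libraries. Shaded bands span the 8 neuronal and the 8 astrocyte markers in naïve mice and the dotted line is the median of all genes tested, −0.64. Grin2c and Gabrg1 lie in the astrocyte band, and Grid1 lies at the dotted line. In naïve mice the sign of Grid1 turned under median-ratio scaling, where it no longer passed the test.

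NMDA receptors need the obligatory subunit GluN1, coded by Grin1, together with GluN2 or GluN3 subunits. Grin2c, the GluN2C subunit, was measured at 532, 499, 507 and 533 CPM in the naïve IP libraries and at 55.6, 62.1, 52.7 and 50.1 CPM in naïve INPUT. After stress the IP values were 472, 485, 445 and 533 CPM and the INPUT values 50.3, 48.9, 52.6 and 52.9 CPM. Each IP library was thus far above each INPUT library. The naïve log2 ratio was 3.23 ± 0.07 (SE), above that of 98.7% of all genes tested (limma, adjusted p = 3.4e-14).

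The obligatory subunit went the other way. Grin1 stood at 43.1, 35.4, 34.7 and 40.7 CPM in naïve IP and 419.8, 465, 450.4 and 423 CPM in naïve INPUT, a log2 ratio of −3.52 ± 0.07 (SE). Per kilobase of exon, the scale on which levels of different genes are compared here, there was 12.1 ± 0.906 (SD, n = 4) times as much Grin2c as Grin1 in naïve IP and 0.112 ± 0.00789 times as much in naïve INPUT. For Grin1, 29.9% of the exon length is shared with other annotated genes, among them Grin1os, and the sources used here do not say whether reads were counted by strand. The log2 ratios of Grin1 and Grin2a lay within the range of the neuronal markers, and the part of neuronal RNA in their IP levels was not tested.

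Among the 4 GluN2 genes, Grin2c made up 93.1% ± 0.415 (SD, n = 4) of the CPM per kilobase in naïve IP and 15.2% ± 1.22 in naïve INPUT. Grin2a and Grin2b, the main GluN2 subunits of the mature forebrain, had log2 ratios of −3.09 and −2.88. Their shares fell from 52.3% ± 0.986 and 30.9% ± 0.727 in naïve INPUT to 4.00% ± 0.250 and 2.74% ± 0.248 in naïve IP, although the order of Grin2a and Grin2b depends on the transcript length used. Grin2d was low throughout, at 0.509 to 1.34 CPM in naïve IP and 4.89 to 7.89 CPM in naïve INPUT (log2 ratio −2.69). Grin3a, the GluN3A subunit, which lowers calcium entry through NMDA receptors, was higher in IP. Its naïve values were 52.7, 57.9, 54.7 and 54.4 CPM in IP and 41.0, 38.2, 38.5 and 41.1 CPM in INPUT, with no overlap and a log2 ratio of 0.47 ± 0.06 (SE).

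All 4 AMPA receptor subunits were lower in IP, and by unequal amounts, though in stressed mice Gria1 no longer passed under median-ratio scaling. Gria1 was the least reduced, at 225, 244, 186 and 217 CPM in naïve IP against 453, 445, 455 and 450.0 CPM in naïve INPUT, a log2 ratio of −1.06 ± 0.07 (SE). Gria2, whose edited form makes AMPA receptors nearly impermeable to calcium, had a log2 ratio of −2.12 ± 0.08 (SE), with 191 to 248 CPM in naïve IP and 903 to 1030.4 CPM in naïve INPUT. Gria3 and Gria4 followed at −2.62 and −2.92. The make-up of the family therefore differed between the fractions: Gria1 held 51.6% ± 1.57 of the AMPA subunit level per kilobase in naïve IP and 29.8% ± 1.04 in naïve INPUT, and Gria2 held 28.9% ± 1.17 and 34.8% ± 0.816. The ratio of Gria2 to Gria1 per kilobase was 0.562 ± 0.0342 in naïve IP and 1.17 ± 0.0650 in naïve INPUT.

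Of the kainate receptor subunits, Grik1, Grik2 and Grik3 can form channels by themselves, while Grik4 and Grik5 bind glutamate with high affinity and need one of those partners. All 5 were lower in IP. Grik5 and Grik2 were the least reduced, with log2 ratios of −0.98 ± 0.07 (SE) and −1.08 ± 0.07 (SE), and Grik1 and Grik4 stood at −2.09 and −2.67. Grik3 was the most reduced, at 8.52, 11.8, 10.3 and 16.4 CPM in naïve IP and 126, 166, 119 and 147 CPM in naïve INPUT, a log2 ratio of −3.59 ± 0.16 (SE). Grik5 held 73.3% ± 1.67 of the kainate subunit level per kilobase in naïve IP and 51.1% ± 0.617 in naïve INPUT, and the share of Grik3 was 6.00% ± 1.56 against 25.1% ± 2.28. The delta receptor gene Grid1, which codes a synaptic organiser related to the ionotropic receptors, had 41.8 to 47.0 CPM in naïve IP and 66.3 to 72.7 CPM in naïve INPUT. Its log2 ratio of −0.61 ± 0.06 (SE) was close to the median of all genes, and under median-ratio scaling it became 0.06 and no longer passed the test.

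The metabotropic glutamate receptors also split between close relatives. Grm3 and Grm2 form group II, which couples to inhibitory G proteins. Grm3 was measured at 1297, 1175, 1172 and 1175 CPM in naïve IP and 203, 220.3, 191 and 204 CPM in naïve INPUT, a log2 ratio of 2.56 ± 0.06 (SE). Grm2 was measured at 3.96, 4.48, 3.96 and 3.25 CPM in naïve IP and 56.4, 51.7, 68.3 and 56.7 CPM in naïve INPUT, a log2 ratio of −3.86 ± 0.11 (SE). Grm3 was far higher and Grm2 far lower in each IP library than in any INPUT library. Grm3 held 99.8% ± 0.0288 of the group II level per kilobase in naïve IP and 84.4% ± 2.34 in naïve INPUT.

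Grm5, the group I receptor that raises calcium through phospholipase C, had 40.4, 37.9, 30.4 and 40.5 CPM in naïve IP and 385, 347, 371 and 355 CPM in naïve INPUT. Its log2 ratio of −3.29 ± 0.08 (SE) lay within the range of the neuronal markers. Per kilobase, the level of Grm3 was 87.2 ± 11.1 times that of Grm5 in naïve IP and 1.50 ± 0.146 times in naïve INPUT. The part of neuronal RNA in the IP level of Grm5 was not tested. The 3 listed group III receptors, mostly known as presynaptic brakes on release, were lower in IP, with log2 ratios of −2.58 for Grm7, −3.40 for Grm8 and −3.49 for Grm4. Grm4 had 1.68 to 3.14 CPM and Grm7 13.4 to 23.4 CPM in naïve IP.

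GABA-A receptors are chloride channels of alpha, beta and gamma or delta subunits, and here 3 of the 9 listed subunits were higher in IP. Gabrg1, the gamma-1 subunit, was measured at 167, 175, 174 and 149 CPM in naïve IP and 19.7, 17.6, 19.4 and 18.9 CPM in naïve INPUT, a log2 ratio of 3.13 ± 0.07 (SE). Gabrb1, the beta-1 subunit, was measured at 155, 160.2, 157 and 154 CPM and 36.6, 38.9, 42.3 and 43.0 CPM, a log2 ratio of 1.96 ± 0.06 (SE). Gabra2, the alpha-2 subunit, was measured at 111, 122, 121 and 108 CPM and 75.3, 66.4, 71.3 and 66.9 CPM, a log2 ratio of 0.72 ± 0.06 (SE). They are 1 subunit each of the gamma, beta and alpha classes, and in each the IP and INPUT values lay apart.

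The strongest reductions of all 33 members were in the same family. Gabrd, the delta subunit of extrasynaptic receptors, was measured at 4.41, 3.63, 3.45 and 3.02 CPM in naïve IP and 69.5, 67.8, 64.9 and 75.4 CPM in naïve INPUT, a log2 ratio of −4.23 ± 0.11 (SE). Gabra3 had 9.10, 7.93, 8.22 and 10.6 CPM in naïve IP and 153, 170.2, 171 and 171 CPM in naïve INPUT (−4.21 ± 0.09 (SE)). Gabrb2, a main beta subunit of cortical neurons, had 31.8, 32.7, 32.7 and 40.1 CPM in naïve IP and 628, 660.1, 593 and 644 CPM in naïve INPUT (−4.20 ± 0.07 (SE)). For each of these genes every INPUT library was far above every IP library. Gabra5 had 4.36, 2.82, 3.37 and 3.29 CPM in naïve IP and 51.4, 57.0, 63.8 and 54.9 CPM in naïve INPUT (−4.01 ± 0.12 (SE)). Gabra4 and Gabrg3 were less reduced, at −2.06 and −1.65.

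The listed subunits therefore ranked differently in each fraction. Among the 4 listed alpha subunits Gabra2 held 62.1% ± 2.76 of the level per kilobase in naïve IP and 10.6% ± 0.780 in naïve INPUT. Gabrb1 held 57.1% ± 2.94 of the summed Gabrb1 and Gabrb2 level in naïve IP and 1.82% ± 0.176 in naïve INPUT. Gabrb2 lay within the range of the neuronal markers, and the part of neuronal RNA in its IP level was not tested. Gabrg1 held 98.5% ± 0.195 of the summed Gabrg1 and Gabrg3 level in naïve IP and 69.9% ± 3.02 in naïve INPUT.

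GABA-B receptors work as a pair of Gabbr1, which binds GABA, and Gabbr2, which couples to the G protein. The pair parted between the fractions. Gabbr1 was measured at 1651, 1515, 1627 and 1660.4 CPM in naïve IP and 1141, 1094, 1117 and 1060.3 CPM in naïve INPUT, a log2 ratio of 0.55 ± 0.05 (SE). Gabbr2 was measured at 336, 354, 393 and 329 CPM in naïve IP and 627, 680.3, 599 and 623 CPM in naïve INPUT, a log2 ratio of −0.84 ± 0.06 (SE), which no longer passed under median-ratio scaling (−0.18). Per kilobase the ratio of Gabbr1 to Gabbr2 was 5.04 ± 0.495 in naïve IP and 1.91 ± 0.127 in naïve INPUT.

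The same members parted in stressed mice. Grm3 had 216, 194, 184 and 201 CPM in stress INPUT, under each IP value. Gabbr1 had 1199, 1160.1, 1138 and 1126 CPM there. Gabrb1 had 39.0, 40.3, 39.8 and 38.0 CPM and Gabra2 67.7, 78.7, 68.6 and 64.6 CPM. Each of these values lay under those of the same gene in the stress IP libraries.

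For the 6 lowest members the order was the other way. Gabrd had 2.59, 3.94, 2.78 and 2.65 CPM in stress IP and 78.5, 62.4, 55.3 and 68.9 CPM in stress INPUT. Gabra3 had 9.28, 6.16, 8.22 and 9.04 CPM and 135, 186, 165 and 144 CPM, and Gabrb2 had 32.5, 27.2, 31.0 and 34.6 CPM and 577, 642, 617 and 612 CPM. All 3 were far lower in each IP library. Gabra5 had 2.94, 3.01, 3.15 and 3.54 CPM in stress IP and 57.4, 64.1, 53.9 and 55.2 CPM in stress INPUT, and Grik3 had 10.2, 10.2, 10.5 and 11.9 CPM and 122, 137, 147 and 134 CPM. Grm2 had 3.39, 2.86, 2.83 and 4.26 CPM in stress IP, under each of its INPUT values.

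In naïve mice all 28 family shares computed on the per-kilobase scale separated IP from INPUT without overlap (two-sided exact permutation p = 0.029 each, the smallest that 4 against 4 libraries allow, adjusted p = 0.029 over the 28). In stressed mice 26 of 28 did so. Of all genes tested, 83.7% in naïve and 81.4% in stressed mice did not overlap in CPM. Shares within a family depend on each other, and both shares of a pair give the same test. With every naïve p at its smallest possible value, the adjusted p had to equal it. Between stress and naïve no share separated in either fraction, with a smallest exact permutation p of 0.057 in IP (adjusted 0.73) and 0.086 in INPUT (adjusted 0.80).

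**Figure D3:**
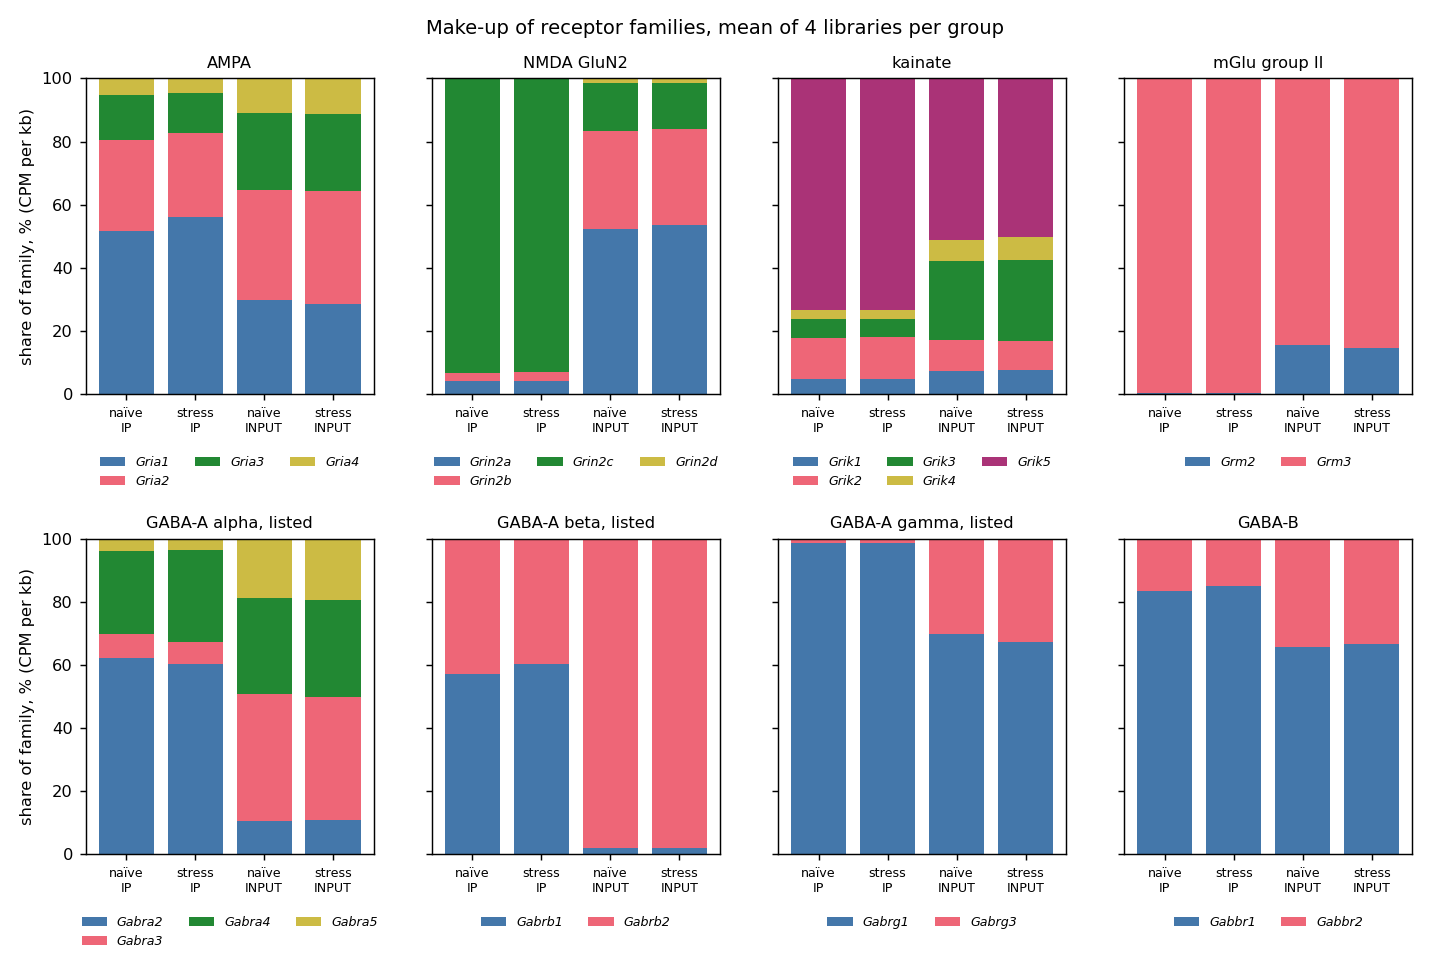
Share of each receptor family's level held by each listed subunit, in percent of summed CPM per kilobase of exon, as stacked means of 4 libraries for IP (left pair of bars) and INPUT (right pair), naïve before stress. Grin2c fills 93.1% of the GluN2 bar in naïve IP and 15.2% in naïve INPUT, while bars of naïve and stress look alike within a fraction.

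On the per-kilobase scale Grm3 was the highest of the 33 in naïve IP at 395 ± 20.1 CPM per kilobase (SD, n = 4), followed by Gabbr1 at 307 ± 12.8 and Grin2c at 106 ± 3.56. Gabbr2 (61.4 ± 4.99), Gria1 (37.6 ± 4.19) and Gabrg1 (34.8 ± 2.57) came next, and the last pair lay within its spread. Gria1 and Gabbr2 were thus among the higher subunits of the astrocyte fraction while being lower there than in the whole cortex on the CPM scale. Under median-ratio scaling Gabbr2 no longer passed in naïve mice, nor Gria1 in stressed mice. In naïve IP 11 members reached 10 CPM per kilobase and 6 were below 1. In naïve INPUT 23 reached 10 and 0 were below 1. Gabbr1 led there at 210.2 CPM per kilobase, followed by Gabrb2 at 158.

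The 7 IP-enriched genes include 3 that are neighbours. On chromosome 5 (GRCm38, GENCODE M21) lie Gabrg1 (chr5:70751047-70842617, minus strand), Gabra2 (chr5:70957597-71095849, minus strand), Gabra4 (chr5:71569749-71658308, minus strand) and Gabrb1 (chr5:71658113-72149037, plus strand), within 1.40 Mb. Gabrg1, Gabra2 and Gabrb1 were higher in IP and Gabra4, which lies between Gabra2 and Gabrb1, was lower by 4.18-fold. Gabra4 and Gabrb1 run in opposite directions and their 5′ ends overlap by 196 bases, yet their log2 ratios were −2.06 and 1.96. On chromosome 7, Gabrg3 (chr7:56716465-57387188, minus strand) and Gabra5 (chr7:57407672-57510059, minus strand), 20483 bases apart, were both lower.

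Promoter windows of 6 members are printed because they hold the sharpest contrasts: Grin2c and Gabrg1 had the highest IP/INPUT ratios, Grm3 and Grm2 are the group II pair that went opposite ways, and Gabrb1 and Gabra4 are the overlapping neighbours that did so. The windows are from RefSeq on GRCm38.p6, 300 bases from 250 before to 50 after the gene start of that source, written 5′ to 3′ on the gene's own strand. These starts can differ from the GENCODE starts, and the Grm3 and Gabrb1 windows lie wholly before theirs. Of the 33 members 23 had a window in the RefSeq table, 30 windows in all. Capitals mark GGGCGG (the GC box), ACAATG (a core bound by SOX factors) and TTCAGCACC (the left part of the RE1 element bound by REST), each on either strand, where GC boxes may overlap. They are 3 of 13 motifs searched, chosen after the matches were seen. Grin2c lies at chr11:115267194-115267493, minus strand, Gabrg1 at chr5:70842568-70842867, minus strand, Grm3 at chr5:9725303-9725602, minus strand, Grm2 at chr9:106656060-106656359, minus strand, Gabrb1 at chr5:71657671-71657970, plus strand (the first of 2 windows for this gene) and Gabra4 at chr5:71658259-71658558, minus strand.
Grin2c: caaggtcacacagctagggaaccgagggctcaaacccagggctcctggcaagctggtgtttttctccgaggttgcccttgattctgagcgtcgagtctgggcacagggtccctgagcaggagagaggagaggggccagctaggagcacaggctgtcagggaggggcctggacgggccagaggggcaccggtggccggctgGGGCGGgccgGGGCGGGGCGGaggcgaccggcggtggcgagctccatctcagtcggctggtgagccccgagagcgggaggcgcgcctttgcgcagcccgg
Gabrg1: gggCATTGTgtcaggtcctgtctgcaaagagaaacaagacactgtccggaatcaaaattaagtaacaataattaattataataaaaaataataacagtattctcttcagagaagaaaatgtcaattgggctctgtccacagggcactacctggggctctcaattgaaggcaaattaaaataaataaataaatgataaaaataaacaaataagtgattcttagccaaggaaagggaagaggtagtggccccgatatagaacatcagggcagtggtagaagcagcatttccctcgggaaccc
Grm3: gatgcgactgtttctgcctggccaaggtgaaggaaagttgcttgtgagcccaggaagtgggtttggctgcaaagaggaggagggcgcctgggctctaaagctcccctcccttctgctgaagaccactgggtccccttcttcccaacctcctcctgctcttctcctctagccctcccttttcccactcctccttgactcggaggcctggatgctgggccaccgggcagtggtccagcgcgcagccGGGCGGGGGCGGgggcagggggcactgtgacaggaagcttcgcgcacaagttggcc
Grm2: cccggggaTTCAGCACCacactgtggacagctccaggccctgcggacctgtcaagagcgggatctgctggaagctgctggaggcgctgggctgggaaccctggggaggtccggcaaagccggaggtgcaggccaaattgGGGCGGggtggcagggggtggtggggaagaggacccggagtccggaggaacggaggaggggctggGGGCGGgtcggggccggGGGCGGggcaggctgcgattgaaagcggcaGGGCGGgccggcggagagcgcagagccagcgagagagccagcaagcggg
Gabrb1: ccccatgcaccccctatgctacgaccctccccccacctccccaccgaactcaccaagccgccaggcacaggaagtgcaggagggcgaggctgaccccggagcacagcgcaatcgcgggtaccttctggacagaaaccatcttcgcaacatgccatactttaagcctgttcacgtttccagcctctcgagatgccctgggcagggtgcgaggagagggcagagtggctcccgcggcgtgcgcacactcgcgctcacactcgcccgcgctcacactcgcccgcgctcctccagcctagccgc
Gabra4: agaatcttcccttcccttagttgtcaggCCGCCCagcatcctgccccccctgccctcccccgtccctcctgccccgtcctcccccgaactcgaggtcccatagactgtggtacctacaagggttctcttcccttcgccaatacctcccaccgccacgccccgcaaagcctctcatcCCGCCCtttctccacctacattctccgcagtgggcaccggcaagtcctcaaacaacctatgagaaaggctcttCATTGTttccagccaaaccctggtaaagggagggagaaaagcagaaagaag

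The promoters of both genes with the highest ratios were unlike each other. The Grin2c window held 22 CpG dinucleotides and 70.0% G and C, with GC boxes, and the Gabrg1 window held 3 CpG and 38.3% G and C, with 1 ACAATG core and no GC box. The median of all 32851 promoters in the table was 7 CpG. Grm2 and Grm3 both held GC boxes, with 22 and 11 CpG, and the Grm2 window alone among the 30 members' windows held TTCAGCACC. GGGCGG occurred in 35.7% of all promoters in the table and in 53.3% of the members' windows, ACAATG in 12.6% and 10.0%, and TTCAGCACC in 0.371% and 3.33%. The Gabra4 window held 3 of the marked matches and the Gabrb1 window none. A match is a description of the letters in the window and was not tested for binding.

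Lists of auxiliary and anchoring proteins give the receptors' partners, and their counts stand beside the 64.0% of all genes called lower and 23.7% called higher. Of 15 auxiliary subunits of glutamate receptors, 1 was higher and 13 lower in naïve mice, with a median log2 ratio of −2.81. Shisa9 (0.50), an AMPA receptor modulator, was the one that was higher, and Cacng4 (0.19) did not pass. Cnih3 and Cnih2, the cornichon AMPA auxiliary proteins, were the lowest at −4.05 and −3.92. Of 18 excitatory anchoring proteins, 1 was higher and 17 lower, with a median of −1.90. Homer3, a scaffold that binds group I metabotropic receptors, was higher at 1.91 ± 0.14 (SE), the next was Shank2 at −0.88, and Dlgap3 and Grip2 were the lowest at −3.40 and −3.25. Of 12 GABA receptor partners, 1 was higher and 9 lower in naïve mice, a share near that of all genes, with a median of −1.98. The gephyrin gene Gphn was higher at 0.23, Clptm1 at 0.12 did not pass, and Kctd8 and Kctd16, auxiliary subunits of GABA-B receptors, were the lowest at −3.78 and −2.95.

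The second question was whether the swim changed the subunits. No member passed the test in IP, where 55 of 12501 genes did (0.44%, limma, adjusted p under 0.05), and 32 of 33 members were tested because Grin2d fell below 1 CPM. At an unadjusted p under 0.05 there were 3 of 32 members, Gria1, Gabrg1 and Gabbr2, where 8.27% of all genes reached it. The 3 became 0 without stress IP library 6 and 1, Gria1, with no variance trend. The 32 log2 differences ran from −0.28 for Gabrd to 0.22 for Gria1, and their 95% intervals reached from −0.67 to 0.40, so that a fall beyond 1.59-fold or a rise beyond 1.32-fold lay outside the interval of every member tested.

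Gabrg1 was the 1 member whose stress and naïve IP values did not overlap, where 5.0% of all genes did not overlap and 2.38% lay wholly higher. Its 4 stress IP values were 181, 188, 186 and 183 CPM, all above the 4 naïve values of 167, 175, 174 and 149 CPM. The log2 difference was 0.15 ± 0.06 (SE) with a 95% interval of 0.02 to 0.29 (limma, adjusted p = 0.53, exact permutation p = 0.029). Groups of 4 without overlap always give this permutation p, so it adds nothing to the lack of overlap. In INPUT the stress values were 18.1, 19.4, 16.1 and 16.3 CPM and the difference was −0.12. Gria1 had 261, 235, 273 and 245 CPM in stress IP, overlapping the naïve values, and a difference of 0.22 ± 0.08 (SE) (limma, adjusted p = 0.47). In INPUT its stress values were 399, 441, 454 and 430.4 CPM and the difference was −0.07. Gabbr2 had 335, 336, 296 and 286 CPM in stress IP and a difference of −0.17 ± 0.07 (SE) (limma, adjusted p = 0.57), beside 0.00 in INPUT.

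Gabbr2, Gria1 and Gabrg1 ranked 4, 5 and 6 in naïve IP by level per kilobase, and the 3 members above them differed by less. Grm3 had 1170.0, 1346, 1089 and 1164 CPM in stress IP, a difference of −0.02 with an interval of −0.17 to 0.14. Gabbr1 had 1514, 1772, 1527 and 1683 CPM, a difference of 0.01 with an interval of −0.14 to 0.15. For Grin2c the difference was −0.10 with an interval of −0.23 to 0.03, and for Gabrb1, at 167, 160.3, 154 and 169.6 CPM, it was 0.06 with an interval of −0.06 to 0.17. Gabra2 and Grin3a varied more between stress IP libraries, at 112, 102, 89.5 and 153 CPM and 56.8, 54.9, 47.4 and 71.7 CPM, with differences of −0.04 and 0.06. None of these values passed the test.

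In IP 24 of 32 members had a negative difference, beside 51.1% of all genes tested, with a median of −0.06. With 1 library left out 20 to 27 were negative. The median then became −0.04 without naïve IP library 2 or 13 and −0.10 without naïve IP library 11 or stress IP library 15. Among the 11 members within the range of the neuronal markers 10 were negative (9 to 11 with 1 library left out), with a median of −0.13 that became −0.08 without naïve IP library 13. Among the 7 higher in IP 3 were negative (1 to 5). Of the other 14 members tested 11 were negative, with a median of −0.05, so negative signs were not limited to the neuronal range.

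Markers of several other cell types were also mostly negative in IP, and none passed the test. Negative were 8 of 8 neuronal markers (6 to 8 with 1 library left out), 4 of 4 of oligodendrocyte precursors, 3 of 5 of oligodendrocytes, 3 of 4 tested of microglia and 2 of 2 tested of endothelial cells, against 3 of 8 astrocyte markers. With the filter at a mean above 5 CPM, 0 of 2 oligodendrocyte and 1 of 2 microglial markers were negative in IP. Under that filter 8 of 8 neuronal, 2 of 2 precursor, 1 of 1 endothelial and 3 of 8 astrocyte markers were. Negative signs were also common in INPUT: 5 of 8 neuronal, 4 of 4 precursor, 4 of 5 oligodendrocyte and 4 of 5 microglial markers. There 4 of 4 endothelial and 5 of 8 astrocyte markers were negative too. The summed level in stress IP against naïve IP was 524 to 773 against 659 to 833 CPM for neurons, 16.8 to 26.1 against 19.7 to 31.2 CPM for oligodendrocyte precursors, 72.4 to 154 against 68.1 to 119 CPM for oligodendrocytes, 16.9 to 26.8 against 17.6 to 22.3 CPM for microglia and 6.59 to 8.53 against 8.68 to 12.4 CPM for endothelial cells. All of these ranges overlapped except those of the endothelial markers. The part of this other RNA in the members' signs was not tested.

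In INPUT no member passed either, where 6 of 13577 genes did (0.0442%, limma, adjusted p under 0.05), and all 33 were tested. At an unadjusted p under 0.05 there was 1 member, Grm2, where 5.03% of all genes reached it. Grm2 had 52.6, 50.4, 52.0 and 51.3 CPM in stress INPUT against 56.4, 51.7, 68.3 and 56.7 CPM in naïve INPUT, overlapping ranges and a difference of −0.17 ± 0.08 (SE) (limma, adjusted p = 0.98). Grin3a was the 1 member without overlap, where 2.87% of all genes did not overlap and 1.44% lay wholly lower. Its stress INPUT values of 34.0, 37.3, 36.3 and 37.6 CPM all lay under the naïve values of 41.0, 38.2, 38.5 and 41.1 CPM, a difference of −0.13 ± 0.06 (SE) (limma, adjusted p = 0.99, exact permutation p = 0.029). That permutation p again only restates the lack of overlap. Of the 33 members 26 had a negative difference, beside 51.2% of all genes tested, with a median of −0.04. These were 9 of 11 within the neuronal marker range, 6 of 7 higher in IP and 11 of the 15 others.

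The difference between both stress effects was tested on all 16 libraries. No member passed, where 3 of 13341 genes did (0.0225%, limma, adjusted p under 0.05). Gria1, with 0.22 in IP and −0.07 in INPUT, had a difference between the effects of 0.29 ± 0.10 (SE) (limma, adjusted p = 0.86). Gabrg1, with 0.15 and −0.12, had 0.27 ± 0.10 (SE) (limma, adjusted p = 0.91). They were the 2 members with an unadjusted p under 0.05, where 4.71% of all genes reached it. None of the partner genes tested passed in the stress comparisons or in the difference between them.

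**Figure D4:**
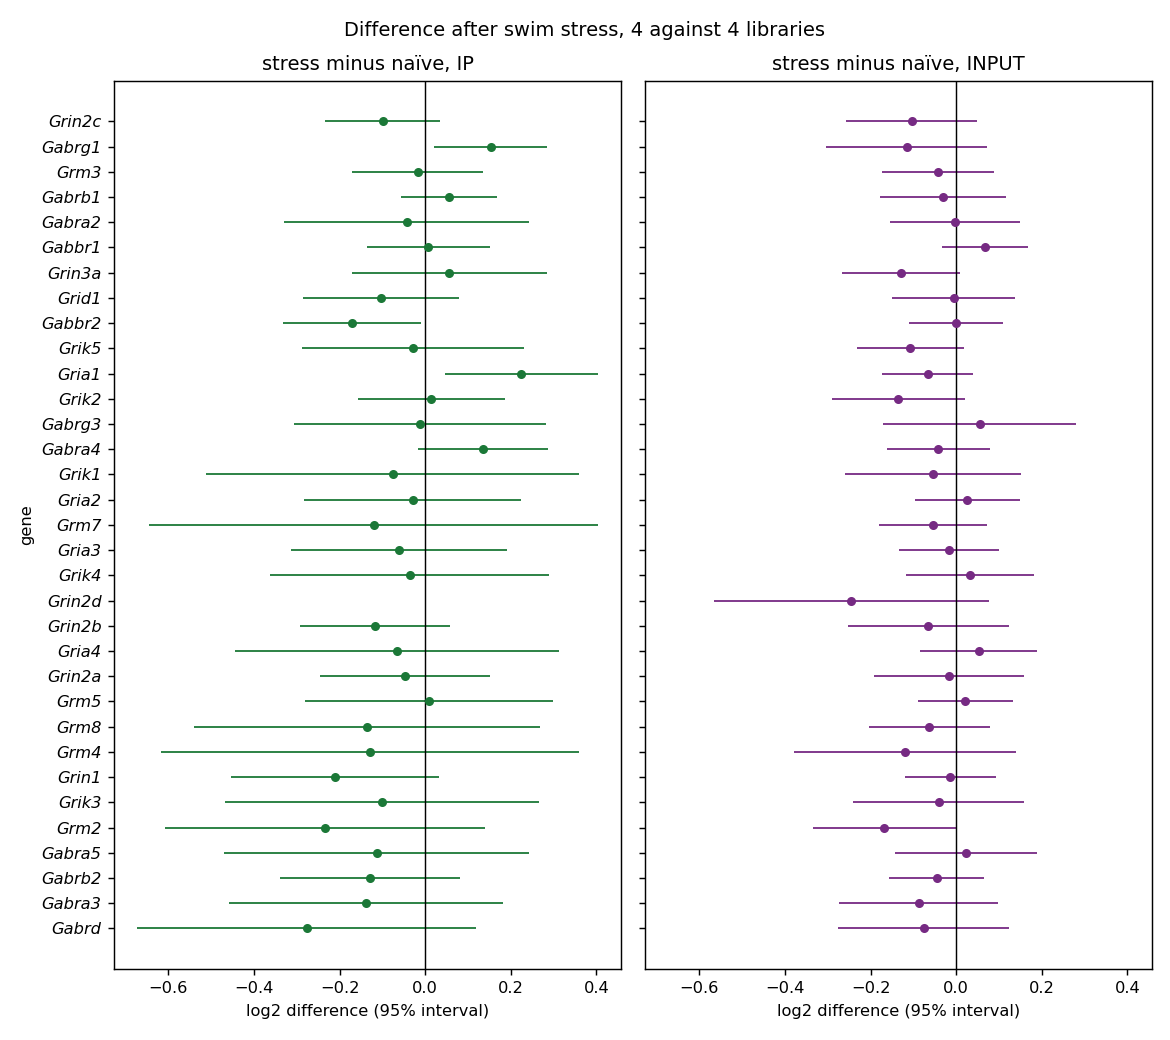
Log2 difference of stress minus naïve for each subunit in IP (left) and INPUT (right), with 95% intervals, 4 against 4 libraries, genes ordered by the naïve IP/INPUT ratio. Grin2d has no IP value because it fell below 1 CPM. Intervals of Gria1 and Gabrg1 in IP lie above 0 and that of Gabbr2 under 0 before adjustment, and no gene passed after it.

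**Figure D5:**
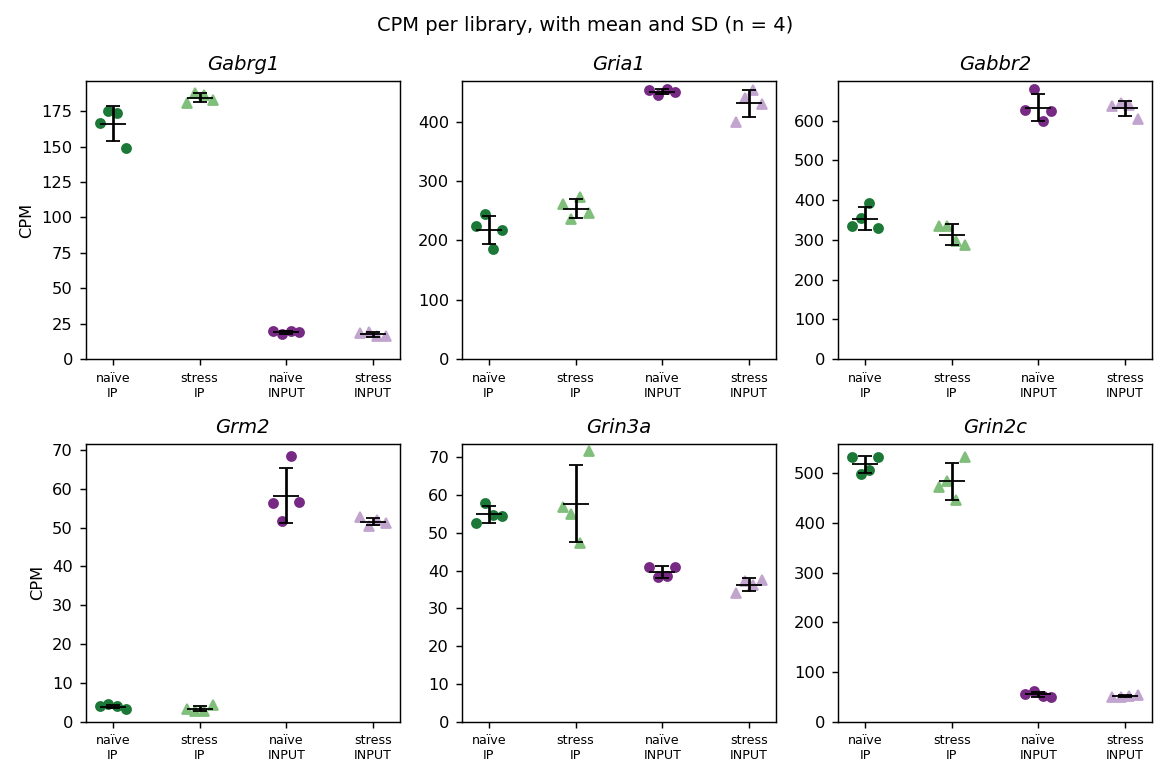
CPM of 6 subunits in every library, with the mean and SD (n = 4) as horizontal and vertical bars, on axes that start at 0. The 4 stress IP points of Gabrg1 lie above its 4 naïve IP points, the 4 stress INPUT points of Grin3a lie under its 4 naïve INPUT points, and for the other genes stress and naïve points overlap within each fraction.

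The genes whose CPM followed the enriched subunits most closely over the 16 libraries were found by Pearson's r on the log2 scale. For Grin2c they were Dock1, Eps8, Sash1, Axl and Ptpn13, for Grm3 they were Acsbg1, Slc39a12, Hadha, Aldoc and Fermt2, and for Gabrg1 they were Gstm5, Mr1, Cldn10, Idh1 and Cyfip1. All had r near 0.999, and 649 to 683 genes had an r above 0.99 with each subunit, since the libraries fall into 8 IP and 8 INPUT that share this split. The values describe that split.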

How the data were processed

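The submitters' processing notes name STAR, HTSeq, edgeR, limma and the build mm10, and the authors deposited 1 table of log2 CPM for every library. Versions and the use of strand in counting are not given in the sources used here. The deposited log2 values have the same floor in every library, and without their constant they sum to 1000000. Values up to a set read count, the only ones checked, come out as whole reads within 0.1. Neither gene length nor a scaling factor beyond the library total enters the deposited values.

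CPM was recovered from the deposited values, and groups were compared with limma 3.58.1 (R 4.3.3, eBayes with a variance trend) on log2(CPM + 0.1), keeping genes whose mean over the compared libraries exceeded 1 CPM, with Benjamini-Hochberg adjustment across those genes and a threshold of 0.05. The fit was tested on simulated data. Comparisons were IP against INPUT in naïve and in stressed mice, stress against naïve in each fraction, and the difference between both stress effects. Single values had two-sided exact permutation tests (70 labelings, SciPy 1.17.1). Levels per kilobase used the union of exons of GENCODE M21 transcripts that have a RefSeq match. The members and lists were chosen with earlier results of these data known. Values in every library were given for members with a ratio above 0, for the 6 lowest, and for any past the threshold or without overlap under stress. Those of Grin1, Grm5, Gria1 and Gabbr2 were added after their values were seen. Partner genes named are the highest and lowest 2 of each list. The alternatives were other pseudocounts (0.01 and 1), filters (none and 5 CPM), scalings, limma-voom on the recovered reads, library weights, no variance trend, all 16 libraries in 1 model, other exon lengths and leaving out each library. The depth floor covers counting error only, since PCR copies of a molecule are counted as separate reads.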

Additional observations from a re-analysis of the deposited data

Results flagged for a closer look

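Within groups of 4 libraries, 132 sets of member values were checked for 1 library far from the other 3, by the gap to its neighbour as a share of the range, and 9 stood out where chance gives about 6.6 (1 in 20). In stress IP library 15, Grin2a was at 22.3 CPM (others 18.2 to 18.5) and Grik3 at 11.9 CPM (others 10.2 to 10.5). In stress IP library 6, Grm8 was at 3.24 CPM (others 2.32 to 2.37), and in stress IP library 5, Gabrd was at 3.94 CPM (others 2.59 to 2.78). In naïve IP library 2, Grm3 was at 1297 CPM (others 1172 to 1175), and in naïve IP library 13, Gabrb2 was at 40.1 CPM (others 31.8 to 32.7). In naïve INPUT library 3, Grm7 was high at 110.4 CPM (others 99.9 to 102) and Gabra3 was low at 153 CPM (others 170.2 to 171). In naïve INPUT library 16, Grm8 was at 32.4 CPM (others 29.8 to 30.0).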

How the results depend on the processing

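No member passed in either stress comparison, or in the difference between both, under any alternative run (0 in each, limma-voom on recovered reads included). Between IP and INPUT, each of the 33 members kept its direction and call with each library left out, in naïve and in stressed mice. The members at an unadjusted p under 0.05 were less stable: with 1 library left out they numbered 0 to 4 in IP, 0 to 2 in INPUT and 2 to 5 for the difference between the effects. In INPUT the members' median ran from −0.06 to −0.03 and 21 to 26 were negative, with a median of −0.03 without naïve INPUT library 7. Scaling changed some calls. In naïve mice under median-ratio scaling neither Grid1, which turned to 0.057, nor Gabbr2 (−0.18) passed any longer, and under quantile normalization Grid1 (−0.06) no longer passed. In stressed mice Gria1 (−0.11), Grik5 (−0.25) and Grid1 (−0.06) under median-ratio scaling, and Grid1 (−0.15) and Gabbr1 (0.11) under quantile normalization, no longer passed. Under quantile normalization 3 members lay within the neuronal marker range in naïve and 5 in stressed mice, and 4 within the astrocyte range in both. With 1 library left out the neuronal range held 10 to 11 members in naïve and 10 to 12 in stressed mice.

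The number of all genes called was less stable. In IP the 55 genes became 2 with no filter, 19 with no variance trend, 143 with library weights and 124 with all 16 libraries in 1 model. They became 18, 24, 122 and 17 without naïve IP libraries 2, 8, 11 and 13, and 24, 22, 23 and 101 without stress IP libraries 4, 5, 6 and 15 (17 to 122). In INPUT the 6 genes became 1 with no filter, 0 with no variance trend, 50 with library weights and 2 with all 16 libraries. They became 1, 2, 32 and 1 without naïve INPUT libraries 3, 7, 14 and 16, and 1, 18, 2 and 1 without stress INPUT libraries 1, 9, 10 and 12 (1 to 32). For the difference between the effects, 3 genes became 19 with library weights and ran from 2 to 28 with 1 library left out, 28 without naïve IP library 11 and 5 without stress IP library 15. The cause was not tested.

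Family shares depend on gene length. With CPM not divided by length, the shares in naïve IP and naïve INPUT were 84.4% and 7.04% for Grin2c, 99.7% and 77.8% for Grm3, 42.0% and 23.5% for Gria1, 42.8% and 49.7% for Gria2, 56.5% and 33.4% for Grik5, 71.2% and 16.1% for Gabra2, 82.0% and 5.99% for Gabrb1, and 96.9% and 53.2% for Gabrg1, with 63.6% for Gabbr1 in naïve INPUT. With exons of all GENCODE transcripts, an alternative chosen after seeing the data, they were 96.0% and 25.1% for Grin2c, 60.5% and 37.6% for Gria1, 23.9% and 31.0% for Gria2, 67.8% and 2.85% for Gabrb1, 97.9% and 63.2% for Gabrg1, and 79.7% and 60.0% for Gabbr1, with 46.4% for Grik5 and 9.75% for Gabra2 in naïve INPUT. Length cancels in every IP/INPUT ratio of 1 gene.

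No paired analysis was possible because the labels number the libraries 1 to 16 and share no number between groups. Depth limits the lowest members in IP: Grm2, Grm4, Grm8, Gabra5, Gabrd, Grik1 and Grik4 had group means under 5 CPM there, and Grin2d fell below the filter in the stress comparison. The widest stress intervals in IP were those of Grm7, Grm4 and Grik1.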
